A study of Mus musculus with 10 samples.

Results

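Liver transcripts of 35 genes of blood clotting were compared between fasted mice made to lose the glucocorticoid receptor in macrophages and their littermates. The genes were taken by symbol from a list of procoagulant genes (19), anticoagulant genes (10) and fibrinolytic genes (6). Of the 35, 33 had a row among the 19764 genes of the count table; Serpind1 and Cpb2 were not analysed here. After removal of genes with too few counts, 30 of the 12558 tested genes were members of the list: 18 procoagulant, 8 anticoagulant and 4 fibrinolytic.

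GRMAC mice carried a floxed glucocorticoid receptor gene and 1 copy of LysM-Cre, in which the lysozyme 2 promoter drives Cre in macrophages and other myeloid cells. GRflox mice were littermates with the floxed gene and no Cre, so loss of the receptor and the presence of Cre cannot be told apart. All mice were female, and all were fasted for 8 h from ZT12, the onset of the active phase; no fed mice were included. Polyadenylated RNA of whole liver was sequenced from 5 GRMAC and 5 GRflox libraries. The labels number the libraries and do not state that each came from a separate animal, so p-values measure the spread between these samples.

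The liver makes most of the proteins that clot blood. In the intrinsic pathway, kininogen and plasma kallikrein act with factor XII to activate factor XI, and factor XI activates factor IX; tissue factor with factor VII starts the extrinsic pathway. Both lead to factor X and to thrombin, which cuts fibrinogen, a protein of the 3 chains encoded by Fga, Fgb and Fgg, into fibrin. Anticoagulants such as antithrombin and protein C hold the cascade in check, and plasmin, made from plasminogen, dissolves fibrin. The fibrinogen genes are acute phase genes: interleukin-6 raises their transcription in hepatocytes through STAT3, and glucocorticoids enhance that response. C/EBP factors of hepatocytes bind fibrinogen promoters in mammals.

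The promoters of the 3 fibrinogen genes and of F11, the genes with the lowest p-values of the list, are shown because these genes carry the main result. Each is read 5′ to 3′ on the strand of its gene, from 250 bases before to 50 bases from the gene start, in RefSeq's annotation of GRCm38.p6; 26 of the 35 genes had an entry. RefSeq places the gene start of Fgg at 83007724 and that of Fgb at 83049863, upstream of the spans of the count table given below (83007896 for Fgg and 83049790 for Fgb), and motif positions are counted from the RefSeq start. Fga is on the plus strand at chr3:83025903-83026202, Fgb on the minus strand at chr3:83049814-83050113, Fgg on the plus strand at chr3:83007474-83007773, and F11 on the minus strand at chr8:45261982-45262281. Capitals mark matches, on either strand, to the C/EBP motif TTGCNNAA, the interleukin-6 response core CTGGGA, the STAT motif TTCNNNGAA or the glucocorticoid receptor half-site AGAACA.
Fga: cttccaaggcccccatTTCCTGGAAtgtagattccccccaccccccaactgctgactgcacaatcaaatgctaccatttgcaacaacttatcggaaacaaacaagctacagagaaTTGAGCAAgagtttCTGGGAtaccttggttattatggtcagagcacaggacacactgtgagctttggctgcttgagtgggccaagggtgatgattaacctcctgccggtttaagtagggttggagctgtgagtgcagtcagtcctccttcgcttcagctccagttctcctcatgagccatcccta
Fgb: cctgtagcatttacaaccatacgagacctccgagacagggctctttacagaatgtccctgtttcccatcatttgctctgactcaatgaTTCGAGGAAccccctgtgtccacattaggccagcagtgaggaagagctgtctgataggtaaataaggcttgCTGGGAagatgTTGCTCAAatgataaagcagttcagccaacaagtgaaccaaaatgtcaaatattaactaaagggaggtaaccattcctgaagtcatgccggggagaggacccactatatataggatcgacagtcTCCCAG
Fgg: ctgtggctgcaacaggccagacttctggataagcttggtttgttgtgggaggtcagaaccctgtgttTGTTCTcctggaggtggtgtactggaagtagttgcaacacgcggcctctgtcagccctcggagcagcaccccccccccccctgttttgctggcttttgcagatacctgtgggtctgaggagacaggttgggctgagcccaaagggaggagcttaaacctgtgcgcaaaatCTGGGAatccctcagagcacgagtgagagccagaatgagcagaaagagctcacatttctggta
F11: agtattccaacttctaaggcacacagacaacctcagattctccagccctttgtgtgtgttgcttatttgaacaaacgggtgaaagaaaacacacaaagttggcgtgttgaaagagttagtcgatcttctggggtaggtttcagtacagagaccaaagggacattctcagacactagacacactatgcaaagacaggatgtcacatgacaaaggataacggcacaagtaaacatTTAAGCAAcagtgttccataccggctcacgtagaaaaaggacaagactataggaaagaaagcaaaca

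Fga and Fgb each held the C/EBP motif, at −135 and at −80 from the gene start, and the STAT motif, at −234 and at −162. The interleukin-6 response core lay at −121 in Fga, at −91 and 44 in Fgb and at −13 in Fgg. The glucocorticoid half-site was matched in Fgg alone among these 4, at −183. F11 had 1 match, to the C/EBP motif at −17. No match overlapped another in these 4 promoters. Among all 32851 RefSeq promoters of the same length, 10.8% held the C/EBP motif, 31.8% the interleukin-6 core, 8.30% the STAT motif and 19.0% the glucocorticoid half-site. A match describes letters and not a bound site.

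The libraries held 23258884 to 26116916 counts in GRMAC and 25697931 to 27692528 in GRflox, and a count of 3 in a library corresponded to 0.111 to 0.129 CPM (read counts scaled to library size, here adjusted by TMM, which balances the composition of libraries). Nr3c1, which encodes the receptor, was at 82.5 ± 7.75 CPM in GRMAC and 72.8 ± 7.14 CPM in GRflox (SD, n = 5 each; edgeR adjusted p = 0.277); hepatocytes, where LysM-Cre is not active, give most of the RNA of a liver, and the level is no check on the deletion. Hepatocyte markers were abundant in every library, with 8 genes summing to 117430 to 140754 CPM in GRMAC and 119073 to 138557 CPM in GRflox. GRMAC 2 stood apart from the other GRMAC libraries: it was the highest of all 10 libraries in 17 of the 30 genes and the lowest in 3. Its sum of hepatocyte markers was the lowest of all (117430 CPM), and Alb, at 88906 CPM, made up most of it. Among these markers, GRMAC 2 was the lowest library for Alb and Cps1 and the highest for Serpina1c. Its 15 sinusoidal endothelial markers summed to 374 CPM, against 549 to 600 CPM in the other GRMAC libraries and 474 to 542 CPM in GRflox. GRflox 1 was the lowest library in 12 of the 30 genes. Such counts were not made over all tested genes, so they do not set the clotting genes apart from others. In whole tissue, fewer cells of a type and less RNA per cell cannot be told apart.

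F11, the gene of coagulation factor XI (NM_028066, mm10 chromosome 8, 45241168 to 45262031), rose in GRMAC liver and was the 1 gene of the 30 that passed the test over all genes. The fibrinogen genes Fga, Fgb and Fgg and the kininogen gene Kng1 were also higher in GRMAC, with no overlap between the groups, by 1.16-fold to 1.37-fold; they passed in the authors' deposited table and not with edgeR. No gene of the list passed in the lower direction. The test was edgeR's quasi-likelihood test with Benjamini-Hochberg adjustment at 0.05, which called 22 of 12558 genes (0.175%), 15 of them higher in GRMAC (0.119%).

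F11 was at 49.9, 56.1, 55.6, 49.5 and 47.3 CPM in GRMAC 1 to 5, against 36.3, 41.1, 31.5, 36.4 and 41.3 CPM in GRflox 1 to 5. The groups did not overlap: GRMAC 5, the lowest of its group, lay above GRflox 5, the highest of its group. The mean was 51.7 ± 3.93 CPM in GRMAC and 37.3 ± 4.08 CPM in GRflox (SD, n = 5 each), a log2 fold change of 0.47 ± 0.08 (SE; 95% interval 0.30 to 0.64; edgeR adjusted p = 0.0432), or 1.38-fold. The authors' deposited table gives an adjusted p of 0.000112. The call rested close to the threshold: it was lost when any library other than GRMAC 5 was left out (adjusted p 0.0520 to 0.0877), with limma-voom (0.0544) and with a correction for GC content and length (0.0646). Over all 17 alternatives the log2 fold change ranged from 0.42 to 0.51 and the adjusted p from 0.000112 to 0.0877.

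**Figure D1:**
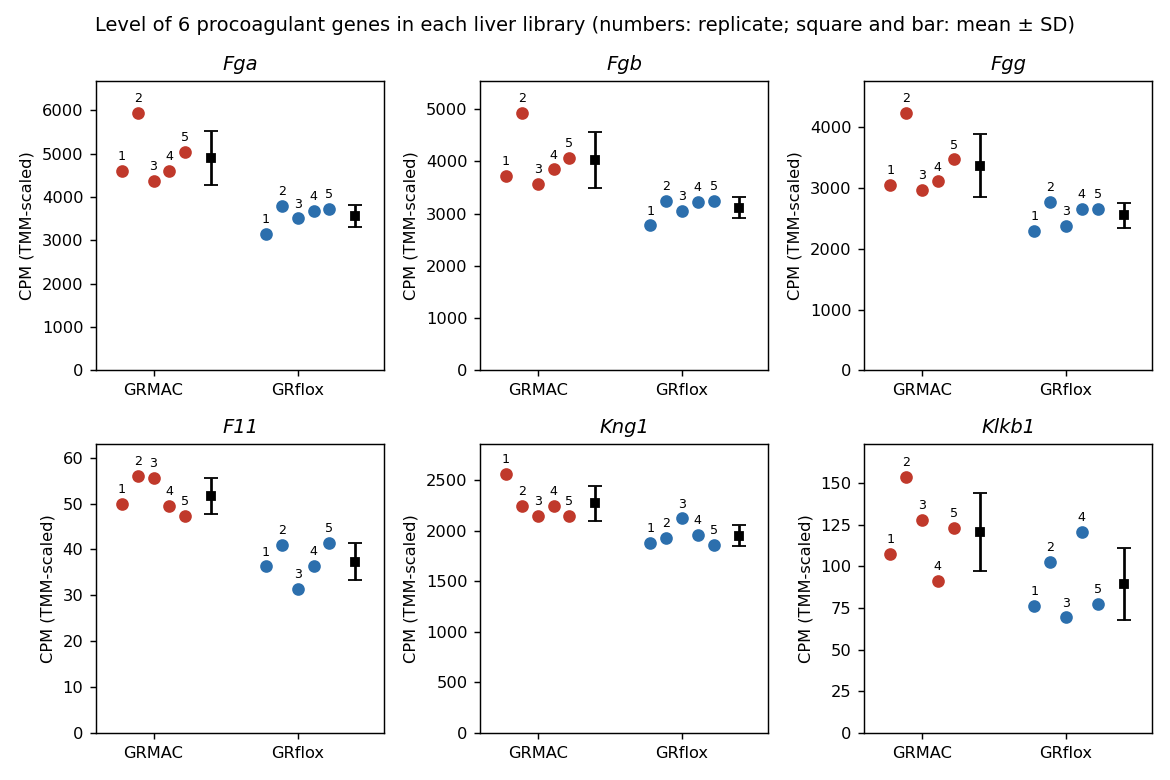
Level of 6 procoagulant genes in CPM (TMM-scaled, linear axis from 0) in each library, GRMAC in red and GRflox in blue; the numbers are replicates and the squares with bars are means ± SD (n = 5). The groups do not overlap for Fga, Fgb, Fgg, F11 and Kng1 and overlap for Klkb1, and GRMAC 2 is the highest library for the 3 fibrinogen genes, F11 and Klkb1.

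Fga, the gene of the fibrinogen alpha chain (NM_001111048, chromosome 3, 83026153 to 83033617), was at 4606, 5932, 4362, 4599.6 and 5040.0 CPM in GRMAC 1 to 5, against 3156, 3787, 3505, 3679.7 and 3722 CPM in GRflox 1 to 5. All GRMAC libraries lay above all GRflox libraries, with GRMAC 2 the highest and GRflox 1 the lowest. The log2 fold change was 0.46 ± 0.09 (95% interval 0.26 to 0.66; edgeR adjusted p = 0.0623), and the authors' deposited table gives an adjusted p of 0.000201. Without GRMAC 2 the log2 fold change was 0.39 (edgeR adjusted p = 0.0770).

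Fgb, the gene of the beta chain (NM_181849, chromosome 3, 83042305 to 83049790), was at 3719, 4930.3, 3571, 3848 and 4073 CPM in GRMAC 1 to 5, against 2775, 3248, 3061, 3224 and 3248 CPM in GRflox 1 to 5. As for Fga, the groups did not overlap, GRMAC 2 was the highest and GRflox 1 the lowest. The log2 fold change was 0.37 ± 0.09 (95% interval 0.17 to 0.57; edgeR adjusted p = 0.0889), with an adjusted p of 0.00561 in the authors' deposited table and a log2 fold change of 0.29 without GRMAC 2.

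Fgg, the gene of the gamma chain (NM_133862, chromosome 3, 83007896 to 83015049), was at 3059, 4234, 2976, 3109.9 and 3473 CPM in GRMAC 1 to 5, against 2290.2, 2775, 2384, 2663 and 2651 CPM in GRflox 1 to 5. The same libraries were at the extremes, and the groups did not overlap. The log2 fold change was 0.40 ± 0.10 (95% interval 0.18 to 0.62; edgeR adjusted p = 0.0914), with an adjusted p of 0.00876 in the authors' deposited table and a log2 fold change of 0.31 without GRMAC 2. Annotation places the long noncoding gene Gm30097 over 593 bases of Fgg on the opposite strand, and the strand setting of the counting is not given in the sources used here.

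The 3 fibrinogen genes lie side by side on chromosome 3 with no other gene of the count table between them, Fgg and Fga 11.1 kb apart and Fga and Fgb 8.69 kb apart. Together they took 1.09 to 1.502% of all counts in GRMAC and 0.820 to 0.978% in GRflox. Per kilobase of transcript, their sum was split in nearly fixed shares: Fga made up 38.4 ± 0.48% in GRMAC and 37.3 ± 0.43% in GRflox (SD, n = 5 each). Fgb made up 21.4 ± 0.28% in GRMAC and 22.1 ± 0.35% in GRflox, and Fgg 40.2 ± 0.60% in GRMAC and 40.7 ± 0.74% in GRflox. The shares depend on the transcript length taken for each gene, 3810 bases for Fgb and 1695 for Fgg. They are a description and were not tested.

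Kng1 encodes kininogen, the cofactor of the contact pathway and source of bradykinin (NM_023125, chromosome 16, 23058300 to 23082078). It was at 2563, 2242, 2149, 2241 and 2145 CPM in GRMAC 1 to 5, against 1876, 1930.2, 2119.8, 1958 and 1862 CPM in GRflox 1 to 5. The groups did not overlap, but GRMAC 3 and GRMAC 5 lay close above GRflox 3, and GRMAC 1 was far above the rest. The log2 fold change was 0.22 ± 0.07 (95% interval 0.06 to 0.37; edgeR adjusted p = 0.165), with an adjusted p of 0.0353 in the authors' deposited table. Its neighbour and close paralogue Kng2, 29.2 kb away, was at 371 ± 29.2 CPM in GRMAC and 317 ± 35 CPM in GRflox (log2 fold change 0.23 ± 0.08, edgeR adjusted p = 0.201). The counts of both are uncertain, since reads may be split between such similar genes.

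Among the other genes of the intrinsic pathway, Klkb1, which encodes plasma kallikrein, lies 7.42 kb from F11 on the same strand. It ranged from 91.4 to 154 CPM in GRMAC and from 69.4 to 121 CPM in GRflox; the groups overlapped, and the log2 fold change of 0.44 ± 0.18 did not pass (edgeR adjusted p = 0.259). The annotated protein-coding gene Gm45753 overlaps 25165 bases of Klkb1 on the same strand and has no row of its own, so its reads may be among the counts of Klkb1. F12, the gene of factor XII, which starts contact activation, was at 592 ± 14.3 CPM in GRMAC and 604 ± 11.3 CPM in GRflox (−0.03 ± 0.05, 95% interval −0.14 to 0.09). F9, the target of factor XI, was at 229 ± 16.1 CPM in GRMAC and 226 ± 11.3 CPM in GRflox (0.02 ± 0.06, 95% interval −0.11 to 0.16). The intervals of F12 and F9 lie below the fold change of F11, while that of Klkb1 spans it. F8, the cofactor of factor IX, which endothelial cells make in mice, was at 9.18 ± 2.20 CPM in GRMAC and 8.23 ± 1.02 CPM in GRflox (0.16 ± 0.16); without GRMAC 2, its lowest library, the log2 fold change was 0.30 (edgeR adjusted p = 0.217).

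In the extrinsic and common pathways the differences were small. F2, the gene of prothrombin, was at 1860.0 ± 71.6 CPM in GRMAC and 1846 ± 84.5 CPM in GRflox (log2 fold change 0.01 ± 0.06, 95% interval −0.12 to 0.15). F7, F10 and F5 encode the protease of the extrinsic pathway, the protease that activates prothrombin and its cofactor. Their log2 fold changes were 0.16 for F7 (edgeR adjusted p = 0.233), 0.14 for F10 (0.336) and 0.11 for F5 (0.424). F3, the gene of tissue factor, was at 4.99 ± 1.21 CPM in GRMAC and 5.80 ± 0.952 CPM in GRflox (−0.22 ± 0.17). F13b, the carrier subunit of the fibrin-linking factor XIII, was at 215 ± 21.9 CPM in GRMAC and 186 ± 14.6 CPM in GRflox (0.21 ± 0.08, edgeR adjusted p = 0.206). F13a1, the catalytic subunit made largely by macrophages and megakaryocytes, had 0 to 4 counts in GRMAC libraries and 1 to 2 in GRflox libraries and was too low to test.

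Fgl1, a fibrinogen-like protein secreted by hepatocytes, had 476 to 756 CPM in GRMAC and 370.2 to 554 CPM in GRflox. Its log2 fold change of 0.25 ± 0.14 (edgeR adjusted p = 0.398) was 0.12 without GRMAC 2, the highest library. Vwf, the gene of von Willebrand factor of endothelial cells and platelets, was at 6.86 ± 1.25 CPM in GRMAC and 8.02 ± 1.32 CPM in GRflox (−0.23 ± 0.14, edgeR adjusted p = 0.453); GRMAC 2 was its lowest library. The 10 platelet markers summed to 5.11 to 8.80 CPM in GRMAC and 5.94 to 8.69 CPM in GRflox. Itga2b, a platelet integrin gene, made up most of the sum, at 5.04 ± 1.14 CPM in GRMAC and 5.16 ± 0.973 CPM in GRflox, while the platelet chemokine gene Pf4 was at 0.234 CPM in GRMAC and 0.327 CPM in GRflox.

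**Figure D2:**
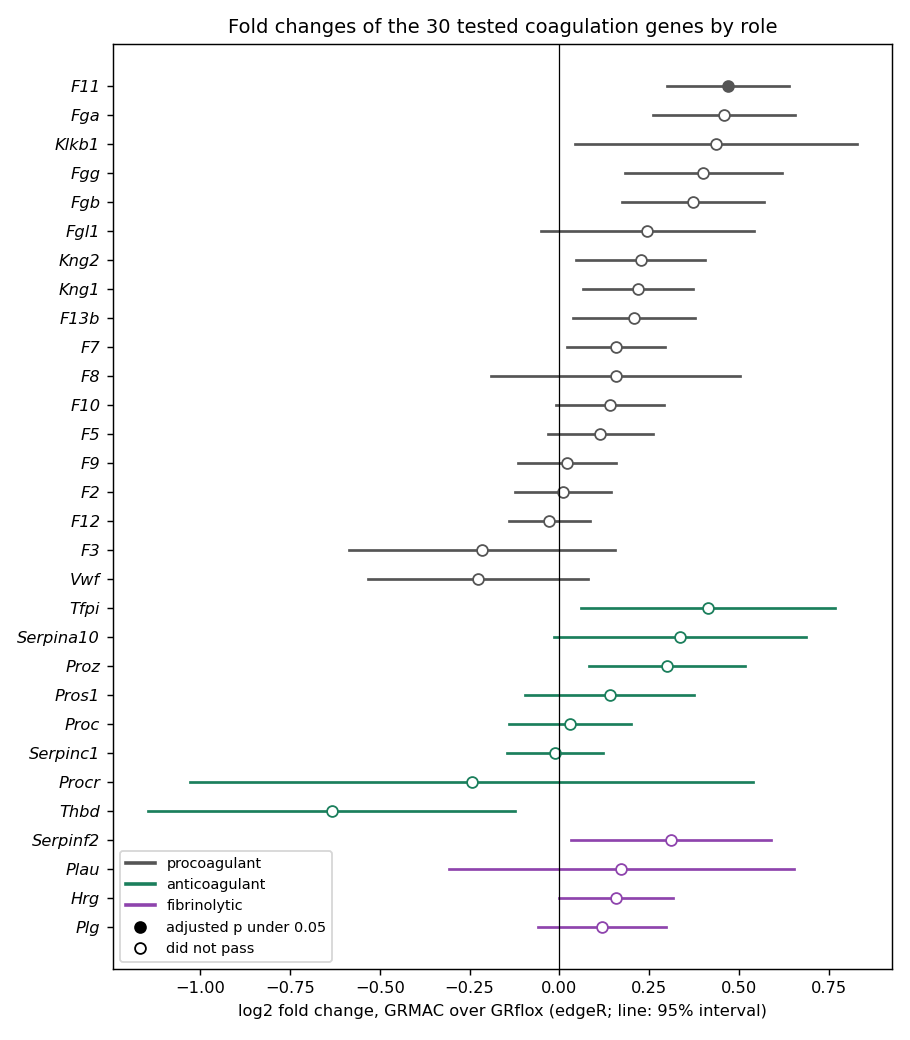
Log2 fold changes of the 30 tested genes, GRMAC over GRflox, from edgeR, with 95% intervals as lines, grouped by role; a filled point passed the adjusted p of 0.05. The interval lay above 0 for 12 genes and below 0 for Thbd; F11 is the 1 filled point.

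Of the 18 procoagulant genes tested, 15 had a positive log2 fold change and 3 a negative one, and 1 passed. Their median was 0.18, against 0.00 over all 12558 genes, of which 50.2% were positive. Among other lists, 17 of 19 other acute phase genes, 13 of 17 haemostasis regulators and 6 of 8 hepatocyte markers were also positive. So were 8 of 9 stellate cell and fibroblast markers and 9 of 12 Kupffer cell markers. The share was smaller among genes for gamma-carboxylation and secretion (6 of 10) and sinusoidal endothelial markers (8 of 15). It was 11 of 18 for transcription factors and cytokine signalling genes. For cholangiocyte, monocyte and platelet markers it was 3 of 5, 1 of 3 and 0 of 2. At an unadjusted p under 0.05, 12 of the 30 genes were higher in GRMAC (40%) and 1 was lower (3.33%), where 8.58% of all tested genes were higher and 7.75% lower. The groups did not overlap, with GRMAC higher, for 5 of the 30 genes (16.7%) and for 2.05% of all tested genes. In the authors' deposited table the same 5 genes, F11, Fga, Fgb, Fgg and Kng1, were higher at an adjusted p under 0.05 and none was lower, where 1.84% of all genes with an adjusted p were higher and 1.49% lower. DESeq2, run on the same counts, also called these 5, with 1.84% of all genes higher. Genes of one cascade in 1 tissue are not independent replicates, and the counts are a description.

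The 8 anticoagulant genes tested split into 5 with positive and 3 with negative log2 fold changes, with a median of 0.08. None passed with edgeR, and DESeq2 called 0 of them. At an unadjusted p under 0.05 (edgeR), 2 were higher and 1 lower, where 8.58% of all tested genes were higher and 7.75% lower. Proz, the gene of protein Z, a cofactor for inhibition of factor X, had the lowest p of the group. It was at 222, 282, 208, 179 and 244 CPM in GRMAC 1 to 5, against 176, 195, 175, 199.6 and 176 CPM in GRflox 1 to 5. The groups overlapped because of GRMAC 4, and GRMAC 2 was the highest library. The log2 fold change was 0.30 ± 0.10 (edgeR adjusted p = 0.176) and 0.21 without GRMAC 2. Proz lies 4.23 kb from F10, which lies 1.502 kb from F7, on chromosome 8, and these neighbours had log2 fold changes of 0.14 and 0.16. Serpina10, the inhibitor that protein Z assists, was at 116 ± 33.2 CPM in GRMAC and 91.7 ± 5.998 CPM in GRflox (0.34 ± 0.16); GRMAC 2 alone had 172 CPM, and without it the log2 fold change was 0.15.

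Antithrombin and protein C, the major liver anticoagulants, had differences near 0. Serpinc1, the gene of antithrombin, was at 2074 ± 71.8 CPM in GRMAC and 2092 ± 95.3 CPM in GRflox (log2 fold change −0.01 ± 0.06, 95% interval −0.15 to 0.12). Proc, the gene of protein C, was at 462 ± 42.7 CPM in GRMAC and 453 ± 37.1 CPM in GRflox (0.03 ± 0.08, 95% interval −0.14 to 0.20). Pros1, the cofactor of protein C, was at 89.2 ± 11.8 CPM in GRMAC and 80.9 ± 12.3 CPM in GRflox (0.14 ± 0.11). Serpina5, the protein C inhibitor, had 0 to 11 counts in GRMAC libraries and 0 to 6 in GRflox libraries and was not tested.

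The anticoagulants that endothelial cells display or release pointed in both directions. Thbd encodes thrombomodulin, which turns thrombin into an activator of protein C. It was at 2.49 ± 0.501 CPM in GRMAC (1.66 to 3.003) and 3.86 ± 1.31 CPM in GRflox (2.43 to 5.08), the largest negative log2 fold change of the list at −0.63 ± 0.24 (95% interval −1.14 to −0.12; edgeR adjusted p = 0.204). GRflox 3 and GRflox 4 lay within the GRMAC range, and the other GRflox libraries above it. Tfpi, the inhibitor of tissue factor, was at 6.46 ± 1.32 CPM in GRMAC (4.43 to 7.80) and 4.85 ± 0.938 CPM in GRflox (3.98 to 6.39), with a log2 fold change of 0.41 ± 0.16 (edgeR adjusted p = 0.228). Without GRMAC 2, its lowest GRMAC library, Tfpi was at 0.53 (edgeR adjusted p = 0.131). DESeq2 then called it (adjusted p = 0.0362, with 0.0362 to 0.412 over its alternatives), where 1.51% of all genes were called higher. That was the 1 call of Tfpi among 17 alternatives, in a setting added after the data were seen. Leaving out the lowest GRMAC library of a gene that is higher in GRMAC must raise its fold change, so the call is no independent evidence. Procr, the endothelial protein C receptor, had 6 to 18 counts in GRMAC libraries and 11 to 15 in GRflox libraries, too few to read a direction (−0.24 ± 0.36). The endothelial marker sums, 374 to 600 CPM in GRMAC and 474 to 542 CPM in GRflox, were lowest in GRMAC 2, where F8, Vwf and Thbd were also at their lowest; the part of these cells in the results was not tested.

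**Figure D3:**
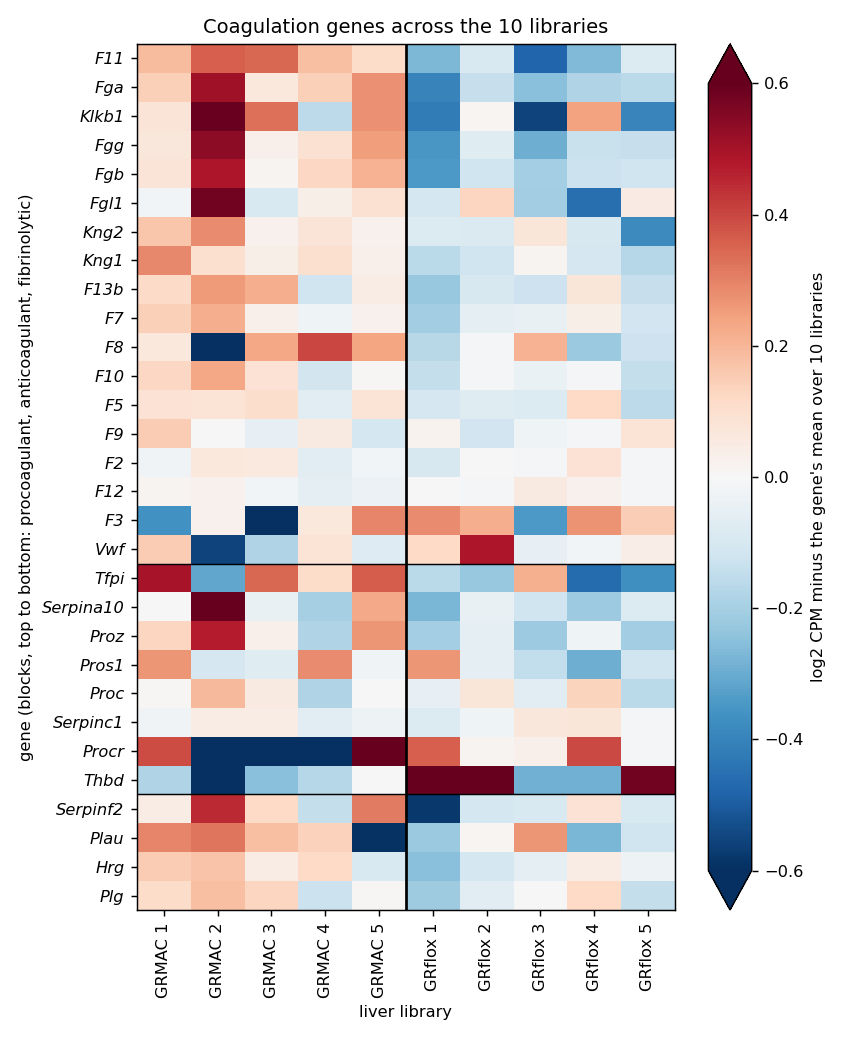
Log2 CPM of the 30 tested genes minus each gene's mean over the 10 libraries, in blocks of procoagulant, anticoagulant and fibrinolytic genes from top to bottom, GRMAC libraries left of the line; colours saturate at 0.6. GRMAC 2 is the highest library in 17 of the 30 genes and blue in F8, Vwf, Thbd, Tfpi and Procr among others, and GRflox 1 is the lowest in 12.

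The fibrinolytic list mixes genes that promote and genes that oppose fibrin breakdown. All 4 of its tested genes had positive log2 fold changes (median 0.17). None passed with edgeR, and DESeq2 called 0. At an unadjusted p under 0.05 (edgeR), 1 was higher, where 8.58% of all tested genes were higher. Serpinf2, the gene of alpha-2-antiplasmin, which blocks plasmin, had the lowest p. It was at 369, 489, 389, 324 and 445 CPM in GRMAC 1 to 5, against 240.0, 333, 336, 380.0 and 336 CPM in GRflox 1 to 5. GRMAC 1 and GRMAC 4 were within the GRflox range and GRflox 1 far below the other GRflox libraries; the log2 fold change was 0.31 ± 0.13 (edgeR adjusted p = 0.254). Plg, the gene of plasminogen, was at 2330.1 ± 193 CPM in GRMAC and 2145 ± 194 CPM in GRflox (0.12 ± 0.08, edgeR adjusted p = 0.503). Hrg, a plasma glycoprotein that binds plasminogen and heparin, was at 840.0 ± 59.7 CPM in GRMAC and 753 ± 56.6 CPM in GRflox (0.16 ± 0.07, edgeR adjusted p = 0.306). Hrg lies 24.2 kb from Kng2 on chromosome 16. The plasminogen activators were scarce: Plau, urokinase, was at 1.05 ± 0.250 CPM in GRMAC and 0.930 ± 0.157 CPM in GRflox (0.17 ± 0.22), and Plat, tissue plasminogen activator, had 6 to 11 counts in GRMAC libraries and 3 to 8 in GRflox libraries and was not tested.

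Levels between genes were compared per kilobase of transcript, and their order depends on the length taken for each gene. In CPM, Fgb was above Fgg, at 4028 against 3370 in GRMAC. Per kilobase the order was as follows. Fgg was the highest, at 1988 ± 306 CPM per kb in GRMAC and 1506 ± 121 in GRflox, and Fga next, at 1897 ± 241 in GRMAC and 1380.0 ± 98.2 in GRflox; the ranges of mean ± SD of these 2 genes overlapped in each genotype. Kng1 was at 1137 ± 85.9 CPM per kb in GRMAC and 977 ± 51.7 in GRflox, and Fgb at 1057 ± 141 in GRMAC and 817 ± 53.4 in GRflox. F2 was at 936 ± 36.04 CPM per kb in GRMAC and 929 ± 42.5 in GRflox, and Plg at 845 ± 69.9 in GRMAC and 778 ± 70.4 in GRflox. Kng1, Fgb and F2 followed in this order in GRMAC, where the spreads of Kng1 and Fgb and of Fgb and F2 overlapped; in GRflox F2 was above Fgb beyond their spread. F11, at 23.1 ± 1.76 CPM per kb in GRMAC and 16.7 ± 1.82 in GRflox, and Klkb1, at 23.0 ± 4.44 in GRMAC and 17.0 ± 4.12 in GRflox, did not differ in level beyond their spread. The endothelial genes F8, Vwf and Thbd were near 1 CPM per kb. All 33 genes together took 2.51 to 3.01% of the counts of GRMAC libraries and 2.05 to 2.34% of those of GRflox libraries.

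**Figure D4:**
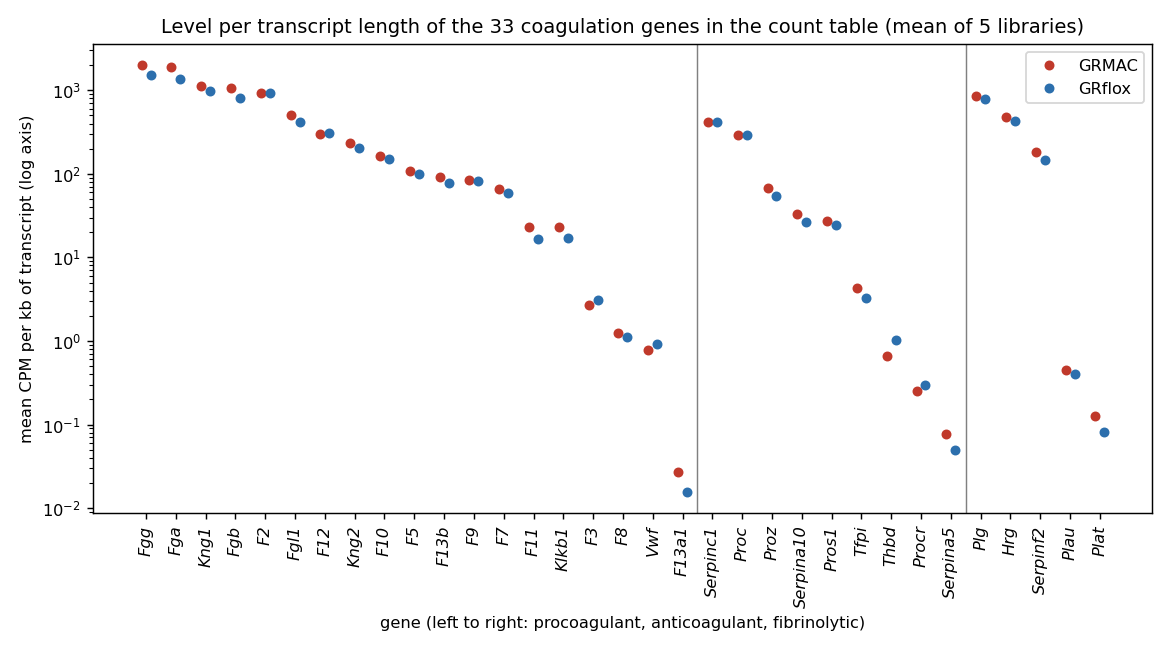
Mean level of the 33 genes per kilobase of transcript (CPM per kb, log axis), GRMAC in red left of GRflox in blue, ordered by GRMAC level within procoagulant, anticoagulant and fibrinolytic genes. Fgg stands at the top, at 1988 in GRMAC and 1506 in GRflox, and F13a1 at the bottom at 0.0272 in GRMAC and 0.0157 in GRflox.

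The SD of log2 CPM was larger in GRMAC for 19 of the 30 genes, with a median over genes of 0.178 in GRMAC and 0.118 in GRflox; this spread was not tested. Of the 30 genes, 24 had their highest library in GRMAC, 17 of them in GRMAC 2, and 22 had their lowest in GRflox. Neither these counts nor that of the larger SD were made over all tested genes, so they may be traits of the libraries. Without GRMAC 2 the median log2 fold change of the 30 genes was 0.13, against 0.16 with it, and 22 rather than 24 were positive. Leaving out GRflox 1 instead also gave 0.13, with 23 positive. With any other library left out the median was 0.145 to 0.187. The log2 fold changes of Serpina10, Fgl1 and F8 without GRMAC 2 are given above, and that of Procr, with few counts, was −0.09. Kng1 was at 0.23 without GRMAC 2, and DESeq2 then no longer called it (adjusted p = 0.0690, with 0.0353 to 0.317 over its alternatives). DESeq2 was not run without any other library, so the lost call cannot be tied to GRMAC 2. With edgeR, the lowest log2 fold change of Kng1 came from leaving out GRMAC 1, at 0.17.

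**Figure D5:**
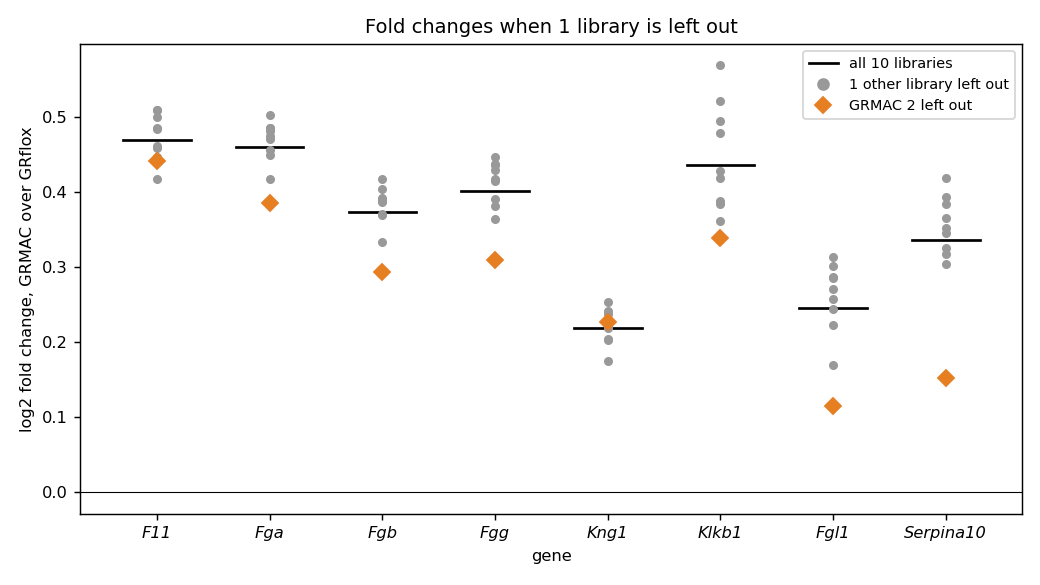
Log2 fold changes (GRMAC over GRflox, edgeR) of 8 genes with all 10 libraries (line), with GRMAC 2 left out (orange diamond) and with each other library left out (grey points). All points lie above 0; leaving out GRMAC 2 gives the lowest value for Fga, Fgb, Fgg, Klkb1, Fgl1 and Serpina10, at 0.12 for Fgl1 and 0.15 for Serpina10.

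Genes that process or regulate the clotting factors were taken from 4 further lists. Of 10 tested genes for gamma-carboxylation and secretion of clotting factors, none passed (edgeR, median 0.01; 0 had an unadjusted p under 0.05, and the authors' deposited table has 0). The lowest p-values were those of Furin, a protease that removes propeptides (−0.14 ± 0.07, edgeR adjusted p = 0.315), and Tpst1, a tyrosine sulfotransferase (0.28 ± 0.16, 0.394). Of 17 tested receptors and other regulators of haemostasis, none passed either (edgeR, median 0.12), and the authors' deposited table has 0. At an unadjusted p under 0.05 (edgeR), 2 were higher and 1 lower, where 8.58% of all tested genes were higher and 7.75% lower. S100a10, which binds plasminogen with annexin A2 at the cell surface, was at 71.8 ± 7.93 CPM in GRMAC and 92.2 ± 16.0 CPM in GRflox (−0.36 ± 0.12, edgeR adjusted p = 0.165). Plgrkt, a plasminogen receptor, was at 7.20 ± 1.09 CPM in GRMAC and 5.95 ± 0.558 CPM in GRflox (0.28 ± 0.12, edgeR adjusted p = 0.256).

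Of 18 transcription factors and cytokine signalling genes that act on clotting genes, none passed with edgeR (median 0.04). At an unadjusted p under 0.05, 5 were higher and 3 lower, where 8.58% of all tested genes were higher and 7.75% lower. The authors' deposited table has 1 higher and 1 lower, against 1.84% and 1.49% of all genes with an adjusted p. Prox1, a hepatocyte homeobox factor, was at 141 ± 15.7 CPM in GRMAC and 109 ± 10.6 CPM in GRflox (0.36 ± 0.09, edgeR adjusted p = 0.0808), with an adjusted p of 0.0120 in the authors' deposited table.

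Of 19 other acute phase genes, none passed with edgeR (median 0.11). At an unadjusted p under 0.05, 3 were higher and 0 lower, where 8.58% of all tested genes were higher and 7.75% lower. The authors' deposited table has 2 higher, against 1.84% of all genes with an adjusted p. Apcs, the gene of serum amyloid P component, was at 73.7 ± 15.9 CPM in GRMAC and 53.5 ± 4.62 CPM in GRflox (0.46 ± 0.13, edgeR adjusted p = 0.127). The groups did not overlap for Apcs, nor, with GRMAC higher, for 2.05% of all tested genes. Cp, the gene of the copper carrier ceruloplasmin, was at 1139 ± 63.8 CPM in GRMAC and 988 ± 49.0 CPM in GRflox (0.21 ± 0.06, edgeR adjusted p = 0.155). In the authors' deposited table the adjusted p was 0.0233 for Apcs and 0.0197 for Cp.

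Markers of other cells gave the following sums: 12 Kupffer cell genes 299 to 422 CPM in GRMAC and 256 to 338 CPM in GRflox, 7 monocyte genes 6.27 to 7.49 CPM in GRMAC and 5.63 to 7.27 CPM in GRflox, 9 stellate cell and fibroblast genes 218 to 296 CPM in GRMAC and 215 to 268 CPM in GRflox, and 5 cholangiocyte genes 28.7 to 49.5 CPM in GRMAC and 27.7 to 35.4 CPM in GRflox. All these ranges overlapped between the genotypes, and GRMAC 2 held the highest cholangiocyte sum. Among single markers, which were picked here for their values, Cd5l of Kupffer cells was at 67.9 ± 12.5 CPM in GRMAC and 46.2 ± 7.27 CPM in GRflox, with no overlap (log2 fold change 0.55 ± 0.13, edgeR adjusted p = 0.0928). Ccr2 of monocytes (0.62 ± 0.21, edgeR adjusted p = 0.178) and Ahsg of hepatocytes (0.20 ± 0.07, edgeR adjusted p = 0.175) did not overlap between the groups either. With GRMAC higher, the groups did not overlap for 2.05% of all tested genes. Log2 fold changes were negative for 3 of 12 Kupffer cell, 2 of 3 tested monocyte and 2 of 8 hepatocyte markers. Among these, Marco of Kupffer cells was at −0.85 ± 0.40 (edgeR adjusted p = 0.327) and Itgam of monocytes at −0.52 ± 0.21 (0.231). Cps1 of hepatocytes was at −0.15 ± 0.13 (edgeR adjusted p = 0.589). The authors' deposited table gives adjusted p-values of 0.00560 for Cd5l, 0.207 for Ccr2 and 0.00822 for Ahsg. Their part in the results was not tested.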

How the data were processed

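Per the submitters' processing notes, the authors used HISAT2 2.1.0, DESeq2 1.24.0 and the build mm10. The labels' protocols name an NEBNext Ultra kit and paired-end reads. The authors deposited whole-number read counts per gene; the counting program, annotation, strand setting and treatment of introns are not given in the sources used here. A second deposited table holds the authors' log2 fold changes and adjusted p-values, per the file headers; 10 columns of values per library in it were not used. Columns were matched to sample titles by genotype and number.

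Genes were filtered with filterByExpr (0.0348% of counts removed), scaled by TMM and tested with edgeR 4.0.16 (quasi-likelihood, robust; R 4.3.3), adjusted by Benjamini-Hochberg over all 12558 tested genes at 0.05. The SE of a log2 fold change is its size over the root of F. Levels per kilobase used GENCODE transcript lengths matched by RefSeq accession, the longest where several matched. The scripts were tested on simulated data. Alternatives were DESeq2 1.42.0, limma-voom (limma 3.58.1), other size factors, no filter, a replicate block, a GC and length correction (splines with 5 degrees of freedom) and leaving out each library; DESeq2 without GRMAC 2 was added after the data were seen.

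The genes and lists were chosen with earlier results of these data known. Values in every library are given for genes past the threshold here or in the authors' table, the fibrinogen genes and the gene with the lowest p of each role; from each further list the 2 genes with the lowest p are named, except that some of them are not reported here. Klkb1, Tfpi, Thbd and the genes moved by GRMAC 2 are described more fully, chosen after their values were seen.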

Additional observations from a re-analysis of the deposited data

Results flagged for a closer look

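In each group of 5 libraries, the highest and the lowest value of each tested gene were set against the spread of the others with Dixon's gap test. Of 60 groups examined, 7 held a library that stood apart, where chance gives about 3, or 1 in 20. Fgl1 was at 756 CPM in GRMAC 2, against 476 to 539.8 CPM in the other GRMAC libraries. Kng1 was at 2563 CPM in GRMAC 1, against 2145 to 2242 CPM in the others of its group. F5 was at 736 CPM in GRMAC 4, against 813 to 826 CPM in the other GRMAC libraries, and at 836 CPM in GRflox 4, against 689.9 to 731 CPM in the other GRflox libraries. Plau was at 0.617 CPM in GRMAC 5, against 1.076 to 1.23 CPM in the others of its group. F3 was at 4.15 CPM in GRflox 3, against 5.87 to 6.44 CPM, and Vwf at 10.3 CPM in GRflox 2, against 7.07 to 7.96 CPM, in the other GRflox libraries.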

How the results depend on the processing

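Over all alternatives, 477 of the results for single genes kept their direction and their side of the threshold, 9 passed it newly, 11 no longer passed and 13 changed sign. The count of genes called over the whole table was 22 with edgeR, 424 with DESeq2, 8 with limma-voom, 34 without the filter, 9 with the GC and length correction, 341 with DESeq2 without GRMAC 2, and 5 to 47 when 1 library was left out (5 without GRflox 3 or GRflox 5, 47 without GRMAC 5). The count of the 30 coagulation genes called was 1 with edgeR, 5 with DESeq2, 5 with DESeq2 without GRMAC 2 (Tfpi in place of Kng1), 0 with limma-voom and with the GC and length correction, and 0 to 1 when 1 library was left out. All of the 22 genes were among those called by DESeq2, and 7 among those of limma-voom; the cause of these differences was not tested.

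With the replicate number as a block, 81 genes were called, 20 of them among the 22, and 2 coagulation genes, F11 (adjusted p = 0.0341) and Fga (adjusted p = 0.0406). The libraries share only a number: the correlation of same-numbered deviations was over 0.1 in 2 of 5 pairs (−0.11 to 0.17), and 2 of 5 libraries of each genotype correlated best with their own number.

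Genes with log2 fold changes near 0 changed sign. With the GC and length correction F9 was at −0.0843 and F12 at 0.0174, and with DESeq2 without GRMAC 2, F2 was at −0.0055 and Proc at −0.0194. When 1 library was left out, F2 ranged from −0.0119 to 0.0349, F9 from −0.0129 to 0.0493, Proc from −0.0143 to 0.0749 and Serpinc1 from −0.0343 to 0.0062. Procr and Plau, with few counts, and Thbd, which ranged from 2.43 to 5.08 CPM in GRflox, had the widest intervals of the tested genes. Depth limits what can be said of F13a1, Serpina5 and Plat.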
